A study of Mus musculus with 4 samples.

Results

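Interferon-stimulated genes are the genes that cells switch on when an interferon binds its receptor, and 43 names of such genes were looked up on a whole-genome mouse array. A gene was a member if the gene name of a probe was on that list, and 42 genes were found of the 34783 genes and named transcripts on the array, on 57 of its 55681 probes. The remaining name, Trim30, had no probe, but its successor name Trim30a had one. Of the 42 members, 33 were placed in a type I antiviral group and 9 in a group of interferon gamma GTPases, and 41 were bright enough to be tested.

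The arrays measured spinal cord RNA from 4 adult male mice of the outbred ICR strain, 8 weeks old, 10 days after surgery. In the SNL group (spinal nerve ligation, 2 mice) the L5 spinal nerve had been tied tightly with silk, and in the sham group (2 mice) it was exposed and not tied. All 4 mice were anaesthetised with isoflurane and perfused with saline before the cord was taken, and no mouse carried a named genetic change. Each mouse gave 1 RNA sample and 1 array. The labels name the L4 to L5 segments in one place and L5 cord in another, and no source used here gives the side of the cord relative to the ligated nerve.

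Type I interferons bind a receptor made of IFNAR1 and IFNAR2, and the kinases JAK1 and TYK2 then activate STAT2 and other factors, which join IRF9 and bind a DNA element called the interferon-stimulated response element (ISRE). Interferon gamma uses a separate receptor, IFNGR1 with IFNGR2, and leads to binding at the gamma-activated site (GAS). The first route is best known for antiviral effectors such as the IFIT, OAS and Mx proteins, and the second for GTPases that attack intracellular pathogens, although many genes answer to both. In the spinal cord, microglia, astrocytes and neurons can all respond to interferons.

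The promoters of some members are shown here, with ISRE and GAS elements marked where their cores were found. RefSeq promoter windows of 300 bases (250 before and 50 after the gene start, build GRCm38.p6) matched 30 of the 42 members. Each window was searched on both strands for an ISRE core (GAAA, any 2 bases, then GAAA again) and for a GAS core (TTC, any 3 bases, then GAA), and matches of either could overlap. Below are the 150 bases before the start of 8 members, 5′ to 3′ on the strand of the gene, with every match to either core in capitals. Isg15 lies on the minus strand at chr4:156200819-156200968, Ifit1 on the plus strand at chr19:34640739-34640888 and Ifit3 on the plus strand at chr19:34583379-34583528. Oas1a is on the minus strand at chr5:120907526-120907675 and Oasl1 on the plus strand at chr5:114923090-114923239. Of the GTPases, Gbp2 is on the plus strand at chr3:142620513-142620662, Igtp on the plus strand at chr11:58199406-58199555 and Irgm1 on the minus strand at chr11:48871421-48871570.
Isg15: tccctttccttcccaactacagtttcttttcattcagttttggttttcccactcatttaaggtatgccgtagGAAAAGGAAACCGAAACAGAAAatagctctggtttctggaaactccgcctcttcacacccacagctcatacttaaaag
Ifit1: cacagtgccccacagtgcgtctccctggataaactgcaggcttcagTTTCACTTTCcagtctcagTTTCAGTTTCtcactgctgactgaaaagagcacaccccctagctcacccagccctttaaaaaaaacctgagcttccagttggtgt
Ifit3: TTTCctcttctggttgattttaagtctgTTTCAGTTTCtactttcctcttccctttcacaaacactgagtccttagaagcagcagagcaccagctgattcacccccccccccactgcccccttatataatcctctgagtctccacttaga
Oas1a: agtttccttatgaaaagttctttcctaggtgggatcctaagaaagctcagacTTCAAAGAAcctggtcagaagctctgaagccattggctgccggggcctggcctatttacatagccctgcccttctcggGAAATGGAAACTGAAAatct
Oasl1: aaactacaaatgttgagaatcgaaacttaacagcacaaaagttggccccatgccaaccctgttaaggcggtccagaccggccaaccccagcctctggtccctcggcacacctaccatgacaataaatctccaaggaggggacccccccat
Gbp2: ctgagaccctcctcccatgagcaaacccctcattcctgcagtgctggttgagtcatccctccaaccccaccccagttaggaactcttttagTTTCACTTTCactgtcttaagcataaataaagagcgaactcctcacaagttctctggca
Igtp: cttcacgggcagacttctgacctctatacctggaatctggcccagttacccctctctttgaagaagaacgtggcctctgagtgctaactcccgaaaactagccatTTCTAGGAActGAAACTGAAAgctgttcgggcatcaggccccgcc
Irgm1: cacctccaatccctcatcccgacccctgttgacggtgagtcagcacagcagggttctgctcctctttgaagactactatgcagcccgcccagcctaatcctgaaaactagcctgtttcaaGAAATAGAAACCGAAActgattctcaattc

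In Isg15, 3 overlapping ISRE cores ran together in a single block of capitals. Ifit1 and Ifit3 each had 2 separate ISRE cores on the opposite strand, and in Ifit3 the more distant one began just outside the stretch printed. Oas1a and Irgm1 each had 2 overlapping ISRE cores close to the start, and Oas1a also had a GAS core further away. Igtp had a GAS core closely followed by an ISRE core, and Irgm2, not printed, had the same pair in the same order. The Oasl1 stretch held neither core, and neither did the rest of its window.

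An ISRE core stood in the windows of 13 of 23 type I members (56.5%) and of 6 of 7 GTPases (85.7%), against 3.99% of the 27025 genes with a window and 3.44% of the 32851 windows. A GAS core stood in 7 of the 23 type I members (30.4%) and in 3 of the 7 GTPases (42.9%), against 9.55% of genes and 8.30% of windows. In 2 members, Bst2 and Ifitm3, the ISRE and GAS matches overlapped each other. Of the type I members with a window, 11 were higher in SNL at unadjusted p under 0.05, and an ISRE core was found in 6 and a GAS core in 2 of them. Among the other 11 tested ones, an ISRE core was found in 6 and a GAS core in 5, and no test was made of either split. A match is a run of letters, and no binding was measured in these mice.

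**Figure D1:**
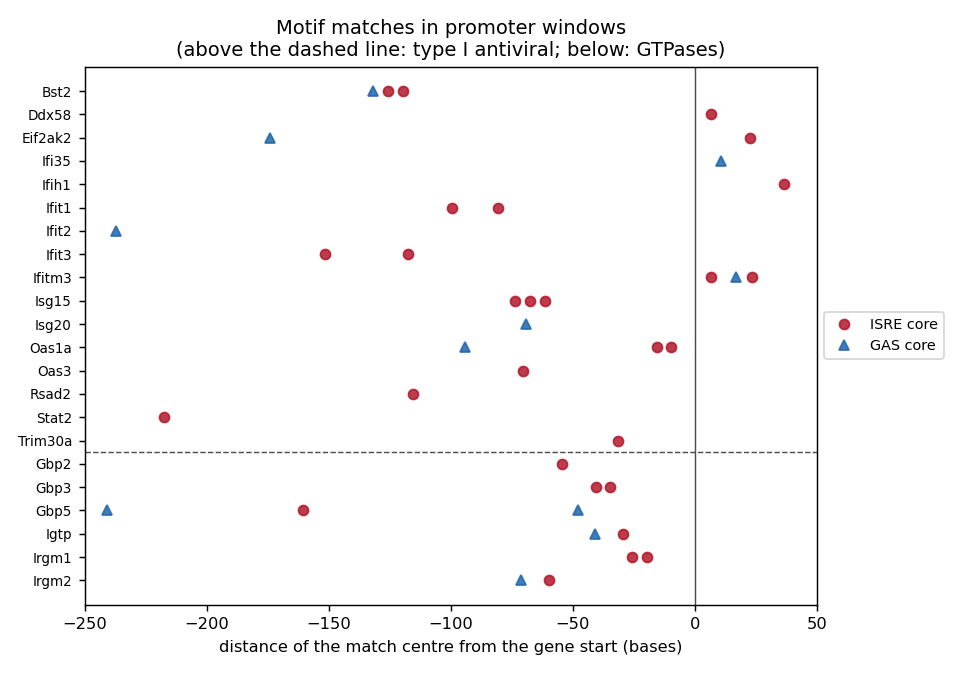
Matches to the ISRE core (circles) and the GAS core (triangles) in the promoter windows of the members with a match, for the first window of a gene with several. The horizontal axis is the distance of the centre of the match from the gene start in bases, and each line is 1 member, with type I members above the dashed line and GTPases below it. Most ISRE matches lie within 150 bases before the start, and Isg15 has 3 side by side.

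Values are given as log2 of the processed signal of a probe minus the 75th percentile of its array, so a value of 0 is the brightness of that percentile. Probes differ in how brightly they hybridise, so levels are compared between mice for 1 probe and never between genes. Between 74.9% and 78.1% of spots were well above background on the SNL arrays, and between 81.9% and 82.1% on the sham arrays. The positions of the arrays on the slide differed between the groups, so position and group cannot be told apart. Neuron, astrocyte and oligodendrocyte markers were bright in all 4 mice. Sham replicate 2 stood apart in genes of myelinating Schwann cells, with Prx at 1.97 and 1.29 in SNL mice, against 1.78 in sham replicate 1 and -3.85 in sham replicate 2. Results are therefore also given without that mouse.

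Both SNL mice were brighter than every sham mouse measured in 22 of the 32 type I antiviral members tested. This is 68.8%, against 25.2% of all genes tested, and for Bst2 it rests on 1 sham mouse. In 7 of the 9 interferon gamma GTPases the groups overlapped. The SNL mice lay above the sham mice in 1 GTPase and below them in 1, against 25.2% and 20.9% of all genes tested. Each change is the SNL mean less the sham mean in log2 units, given with its SE from limma across 29238 genes and 2 mice per group. The median change was 0.39 over the 32 type I members tested and 0.08 over the 9 GTPases, against 0.03 over all genes tested. A change above 0 was found in 29 of the 32 type I members and 6 of the 9 GTPases, and thus in 35 of 41 members, against 55% of all genes tested.

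No member passed a Benjamini-Hochberg adjusted p of 0.05 in limma, a threshold that 0.161% of all genes passed as higher and 0.0103% as lower. The lowest adjusted p of a member was 0.0821, for Oasl1. At an unadjusted p under 0.05, 16 of 41 members were higher in SNL (39.0%), against 6.68% of all genes, and 0 were lower, against 5.47%. Of these 16, 15 were among the 32 type I members (46.9%) and 1 among the 9 GTPases (11.1%). The members were chosen with earlier results of these data known, so these shares describe the list and are no test. At least 2-fold at that p were 2 members, Oasl1 and Mx1, against 1.91% of all genes. The values of the SNL mice all lay above those of the sham mice in 23 members (56.1%), against 25.2% of all genes, and all below them in 2 members, Oas2 (with 1 sham value) and Gbp3, against 20.9%. Without sham replicate 2, the median change was 0.41 for type I members and -0.03 for GTPases. The 2 medians were 0.44 and 0.29 without sham replicate 1, 0.35 and 0.05 without SNL replicate 1, and 0.42 and 0.14 without SNL replicate 2. Over all genes tested, the median in these fits ran from -0.01 to 0.06. Each of these fits leaves 1 mouse in a group, so only medians are given here. The difference between the groups of members was not tested.

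**Figure D2:**
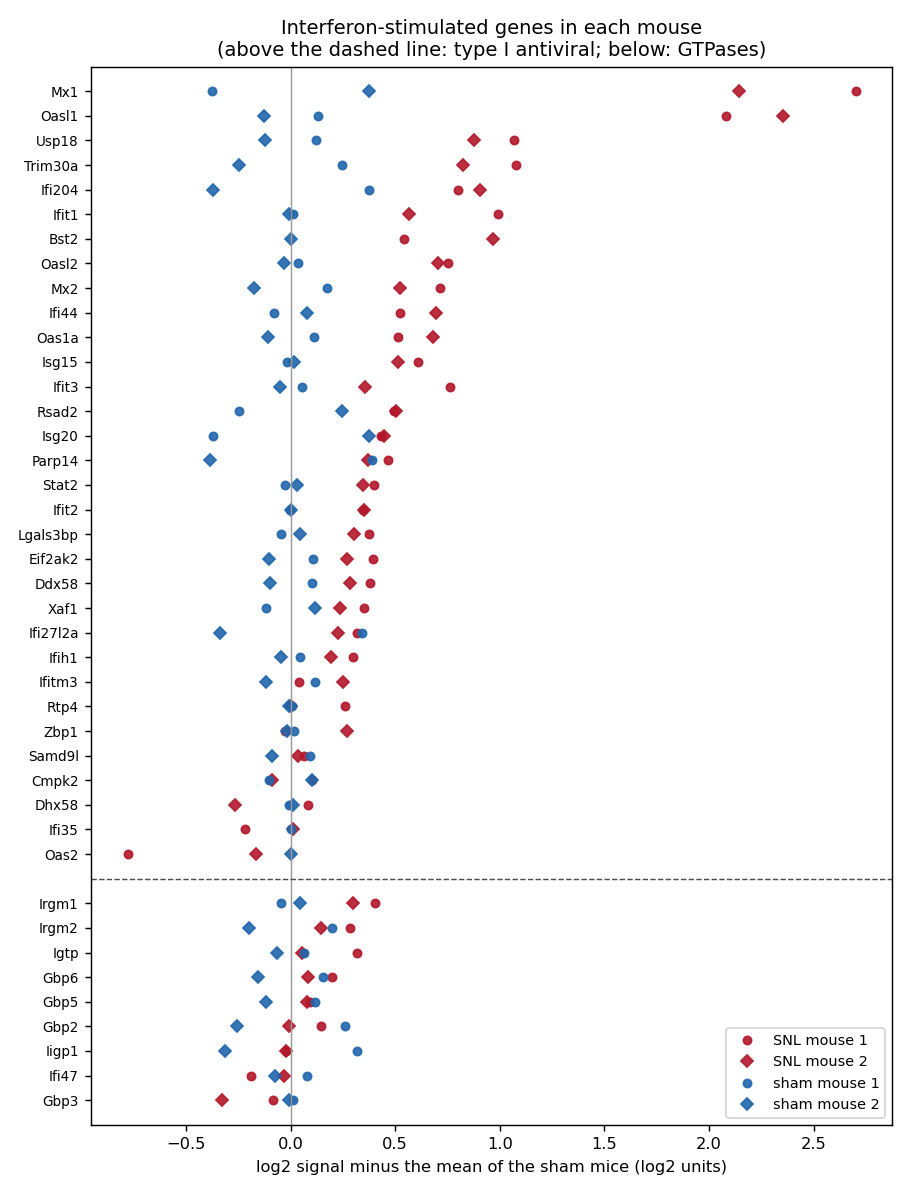
Each tested member in each mouse, as log2 signal minus the mean of the sham mice (horizontal axis, log2 units), with red points for SNL mice and blue points for sham mice and circles and diamonds for mice 1 and 2. Type I members stand above the dashed line and GTPases below it, each ordered by the change. In the upper lines the red points lie to the right of the blue ones, while among the GTPases they overlap except in Irgm1 and Gbp3.

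The IFIT proteins bind viral RNA that lacks the host's cap marks and block its translation, and their 3 genes lie side by side on chromosome 19. Ifit1 was at -0.01 and -0.44 in SNL mice, against -0.997 and -1.02 in sham mice, a change of 0.78 ± 0.18 or 1.71-fold (adjusted p = 0.283). Both SNL mice were above both sham mice, and the SNL mice differed more from each other than the sham mice did. Ifit3 was at 1.89 and 1.49 in SNL mice and 1.18 and 1.08 in sham mice, a change of 0.56 ± 0.18 or 1.47-fold (adjusted p = 0.382). Ifit2, which also acts in cell death, was at -1.22 and -1.21 in SNL mice and at -1.56 and -1.56 in sham mice, a change of 0.35 ± 0.087 (adjusted p = 0.304). The groups did not overlap in any of the 3 genes, and Ifit2 had the smallest change with the closest replicates. Ifit genes have near-identical copies in the mouse, and which copy a probe reads is uncertain.

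The 2′-5′ oligoadenylate synthetases sense double-stranded RNA and start its decay through RNase L, while the OAS-like proteins of the same family act in other ways. All 5 members lie on chromosome 5. Oasl1, which in mice holds back translation of Irf7, was at -1.67 and -1.40 in SNL mice, against -3.63 and -3.88 in sham mice. Its change of 2.22 ± 0.16, or 4.65-fold, had the lowest p of any member (adjusted p = 0.0821). The gap between the groups was several times the spread within either group. Oasl2 was at -0.53 and -0.59 in SNL mice and -1.26 and -1.32 in sham mice, a change of 0.73 ± 0.092 or 1.66-fold (adjusted p = 0.149). Oas1a was at -1.88 and -1.72 in SNL mice and -2.29 and -2.51 in sham mice, a change of 0.60 ± 0.13 or 1.51-fold (adjusted p = 0.271), and its second probe gave 0.74. In both genes the SNL mice lay above the sham mice.

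Oas2 had a value in the other direction, with 1 spot missing. It was at -2.57 and -1.96 in SNL mice and at -1.79 in sham replicate 2, and the spot of sham replicate 1 was an outlier and left out, so its change of -0.47 ± 0.35 rests on 3 arrays (adjusted p = 0.673). Oas3 was not well above background in any mouse and was not tested. Oas1a has close copies in the mouse, so its probes may read more than 1 of them.

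The Mx proteins are dynamin-like GTPases that trap viral nucleoproteins, and Mx1 is disrupted in many inbred mouse strains. Mx1 was dim, at -5.47 and -6.03 in SNL mice, against -8.55 and -7.80 in sham mice, and it was well above background in 1 of the 2 sham mice. Its fitted change of 2.42 ± 0.36, or 5.36-fold, had an adjusted p of 0.172. With normexp correction it was 1.39, below the 2.09 of Oasl1 there. Mx2 was at -1.84 and -2.03 in SNL mice and -2.38 and -2.73 in sham mice, a change of 0.62 ± 0.17 or 1.54-fold (adjusted p = 0.336). For both genes the SNL mice were above the sham mice.

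ISG15 is a ubiquitin-like protein that is attached to other proteins, and USP18 removes it and also blocks signalling at IFNAR2. Isg15 was at -0.61 and -0.71 in SNL mice, against -1.24 and -1.21 in sham mice, a change of 0.56 ± 0.095 or 1.48-fold (adjusted p = 0.197). Its second probe gave 0.71, in the same direction. Usp18 was at -0.95 and -1.14 in SNL mice and -1.90 and -2.14 in sham mice, a change of 0.97 ± 0.14 or 1.96-fold (adjusted p = 0.172). The effector and its remover were thus both brighter in each SNL mouse than in either sham mouse.

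Against 6.68% of all genes tested, 1 of 6 sensors of foreign RNA and DNA (16.7%) was higher at unadjusted p under 0.05. This was Ifi204, a DNA sensor of the HIN-200 family, at -1.88 and -1.77 in SNL mice and -2.31 and -3.05 in sham mice, a change of 0.85 ± 0.29 or 1.81-fold (adjusted p = 0.409). The sham mice differed widely here, and without sham replicate 2 the change was 0.48, while the second probe gave 2.36. Genes of this family resemble each other, so what the probes read is uncertain. Eif2ak2, which encodes the kinase PKR that stops translation on sensing double-stranded RNA, was at -1.70 and -1.83 in SNL mice, against -1.99 and -2.20 in sham mice, a change of 0.33 ± 0.13 (adjusted p = 0.443). Its groups did not overlap either, but the difference missed the threshold. The RNA helicase genes Ddx58 (RIG-I), Ifih1 (MDA5) and Dhx58 (LGP2) were at 0.33 ± 0.12, 0.25 ± 0.10 and -0.09 ± 0.16, and Zbp1, a sensor of Z-form nucleic acid, was at 0.12 ± 0.14. The second probe of Ddx58 gave -0.20, so the direction for this gene depends on the probe.

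Stat2, a transcription factor of the type I route, was at 0.58 and 0.53 in SNL mice and 0.15 and 0.21 in sham mice, a change of 0.37 ± 0.092 or 1.29-fold (adjusted p = 0.300). Trim30a, a restraint on Toll-like receptor signalling in mice, was at -2.85 and -3.11 in SNL mice and -3.68 and -4.18 in sham mice, a change of 0.95 ± 0.22 or 1.93-fold (adjusted p = 0.286). Both genes had SNL mice above sham mice. Parp14, an ADP-ribosyltransferase gene, was at 0.42 ± 0.30, but at 0.030 without sham replicate 2 and 0.80 without sham replicate 1. Of the other signalling members, Xaf1, an antagonist of the apoptosis inhibitor XIAP, was at 0.29 ± 0.13 and Rtp4, a chaperone of G protein-coupled receptors, at 0.13 ± 0.13. Ifi35 was at -0.11 ± 0.17 on 3 arrays. The second probe of Xaf1 gave 2.62, with -0.13 and 0.33 in SNL mice and 0.27 in sham replicate 1, against -5.32 in sham replicate 2. That probe therefore set 1 sham mouse apart from the other 3 mice, not the sham group from the SNL group.

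Members that act on viral entry, exit and nucleotide supply gave 0 of 6 higher at unadjusted p under 0.05, against 6.68% of all genes. All 6 changes were above 0, against 55% of all genes tested. Bst2, or tetherin, which holds budding virus at the cell surface, was at 0.93 and 1.36 in SNL mice and 0.39 in sham replicate 2, a change of 0.76 ± 0.26 on 3 arrays (adjusted p = 0.458). The deposited value table, which keeps the fourth array, gave 0.54. Ifitm3, which blocks virus fusion in endosomes, was at 1.14 and 1.35 in SNL mice, against 1.21 and 0.98 in sham mice, and these groups overlapped (0.14 ± 0.15, adjusted p = 0.738). Rsad2, or viperin, which makes a chain-terminating nucleotide, was at 0.50 ± 0.20, and the exonuclease gene Isg20 at 0.44 ± 0.29. With 1 mouse left out, Rsad2 ran from 0.25 to 0.75 and Isg20 from 0.067 to 0.81, and the lower end of each was the value without sham replicate 1. Cmpk2, the neighbour of Rsad2 and a nucleotide kinase gene, was at 0.0045 ± 0.14, and Samd9l, a restraint on growth and translation, at 0.05 ± 0.11. Effectors of this kind were thus uneven, with values from 0.0045 to 0.76.

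Of the last 3 type I members, Ifi44 was at -1.38 and -1.20 in SNL mice and -1.98 and -1.82 in sham mice, a change of 0.61 ± 0.12 or 1.52-fold (adjusted p = 0.247). Lgals3bp, a secreted galectin-binding glycoprotein, was at 1.82 and 1.75 in SNL mice and 1.40 and 1.49 in sham mice, a change of 0.34 ± 0.097 (adjusted p = 0.349), and its second probe gave 0.42. The groups did not overlap in either gene. Ifi27l2a was at 0.27 ± 0.27, with values of 0.64 and 0.55 in SNL mice and 0.66 and -0.02 in sham mice, so that 1 sham mouse was above both SNL mice.

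The interferon gamma GTPases had smaller values. Irgm1, a regulator of the other immunity-related GTPases and of autophagy, was at -0.06 and -0.17 in SNL mice and -0.51 and -0.42 in sham mice, a change of 0.35 ± 0.10 or 1.27-fold (adjusted p = 0.349), and its second probe gave 0.54. It was the GTPase with the largest change and the one past the unadjusted threshold. The other immunity-related GTPases were Irgm2 at 0.21 ± 0.18, Igtp at 0.19 ± 0.14, Iigp1 at -0.02 ± 0.25 and Ifi47 at -0.11 ± 0.12. These proteins coat and disrupt vacuoles that hold pathogens, and their SNL and sham values overlapped in all 4 genes. The guanylate-binding proteins, which act on the same vacuoles and on inflammasomes, were at 0.14 ± 0.15 for Gbp6, 0.08 ± 0.12 for Gbp5, 0.07 ± 0.22 for Gbp2 and -0.20 ± 0.13 for Gbp3. Gbp3 was at -0.71 and -0.95 in SNL mice, against -0.62 and -0.64 in sham mice, so it was the GTPase whose SNL values lay below the sham values. The second probe of Gbp5 gave -0.31 and that of Gbp6 gave 0.60.

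GTPases of these families that were not on the member list were also read. Gbp4, Gbp11 and Tgtp2 were, with the HIN-200 gene Ifi203, the 4 of 53 other interferon-stimulated genes that were lower in SNL at unadjusted p under 0.05, a share of 7.55%, against 5.47% of all genes tested, and they were named after their values were seen. Gbp4 was at -4.05 and -3.42 in SNL mice and -2.38 and -2.48 in sham mice (-1.31 ± 0.25, adjusted p = 0.232). Gbp11 was at -2.12 and -2.09 in SNL mice and -1.26 and -1.48 in sham mice (-0.74 ± 0.12, adjusted p = 0.186). Tgtp2, a T cell-specific GTPase, was at -1.06 and -1.24 in SNL mice and -0.40 and -0.61 in sham mice (-0.65 ± 0.14, adjusted p = 0.255). The values of the SNL mice were below those of the sham mice in all 3 genes. Others of these families, also read, were Gbp7 at -0.06 ± 0.10, Gbp9 at 0.03 ± 0.20, Gbp10 at -0.04 ± 0.092 and Tgtp1 at -0.43 ± 0.25, and Gbp8 was too dim to be tested. These genes have close copies in the mouse, and which copy each probe reads is uncertain.

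The rest of the pathway was read from lists of ligands, receptors, sensors and further target genes. Of 21 ligand genes, 17 were on the array and 13 were tested, with a median of -0.04, 1 higher and 1 lower at unadjusted p under 0.05. Each is 7.69%, near the 6.68% of all genes tested that were higher and the 5.47% that were lower. Ifna1 was at -4.59 and -4.36 in SNL mice, against -4.86 and -5.16 in sham mice (0.54 ± 0.16, adjusted p = 0.367). Ifna7 was not well above background in the SNL mice, and its fitted change was -0.75 ± 0.12, or 1.69-fold lower in SNL (adjusted p = 0.180). A bound set from the lowest signal well above background gave the same fold, so it adds no lower limit. With normexp correction the change was -0.56. Alpha interferon genes are so alike that these probes may read several of them. Ifnb1 was at -7.11 and -6.63 in SNL mice and -6.47 and -6.82 in sham mice (-0.22 ± 0.24). Ifng was at -6.69 and -7.29 in SNL mice and -7.47 and -7.00 in sham mice (0.25 ± 0.29), so these groups overlapped. Ifng was dim, and it was well above background in both sham mice and in neither SNL mouse. Ifnl3 and Gm13271 were at 0.58 ± 0.29 and -0.24 ± 0.15. No ligand passed the adjusted threshold in either direction.

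Of 16 genes of interferon receptors and JAK-STAT signalling, 4 were higher at unadjusted p under 0.05 and 0 lower, with a median of 0.07. These are 25.0% higher and 0% lower, against 6.68% and 5.47% of all genes tested. Socs3, a feedback inhibitor of JAK kinases that is induced through STAT3, was at 0.38 and 0.56 in SNL mice, against -1.36 and -1.67 in sham mice (1.99 ± 0.16, or 3.96-fold, adjusted p = 0.0877). Ptpn6, a phosphatase of blood cells and microglia, was at 0.78 ± 0.10, Ifngr1 at 0.41 ± 0.097 and Irf9 at 0.33 ± 0.090. The type I receptor genes Ifnar1 and Ifnar2 were at -0.17 ± 0.096 and -0.01 ± 0.096, and Ifngr2 was at 0.17 ± 0.10. Irf9, which joins STAT2 at the ISRE, was thus brighter in SNL mice at unadjusted p under 0.05, as Stat2 was.

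Of 18 genes of sensing upstream of interferon, 7 were higher (38.9%) and 1 lower (5.56%) at unadjusted p under 0.05, with a median of 0.06. Over all genes tested these shares were 6.68% and 5.47%. Tlr7, an endosomal receptor for single-stranded RNA, was at -0.86 and -0.93 in SNL mice and -2.33 and -2.71 in sham mice (1.62 ± 0.17, adjusted p = 0.113). Sting1, the adaptor of DNA sensing, was at 0.73 ± 0.088. Cgas, which makes the ligand of that adaptor and was chosen later, was at -0.06 ± 0.095. Irf7 and Irf5, transcription factors that drive interferon genes, were at 0.97 ± 0.12 and 0.85 ± 0.11. Of 53 tested other interferon-stimulated genes, 15 were higher (28.3%) and 4 lower (7.55%) at that p, with a median of 0.18. Epsti1, the chemokine gene Cxcl10 and the ISG15 ligase gene Herc6 were at 1.21 ± 0.14, 2.37 ± 0.36 and 0.61 ± 0.098, and Ifi203 was at -0.93 ± 0.15. The median of these other target genes lay between those of the type I members and the GTPases.

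**Figure D3:**
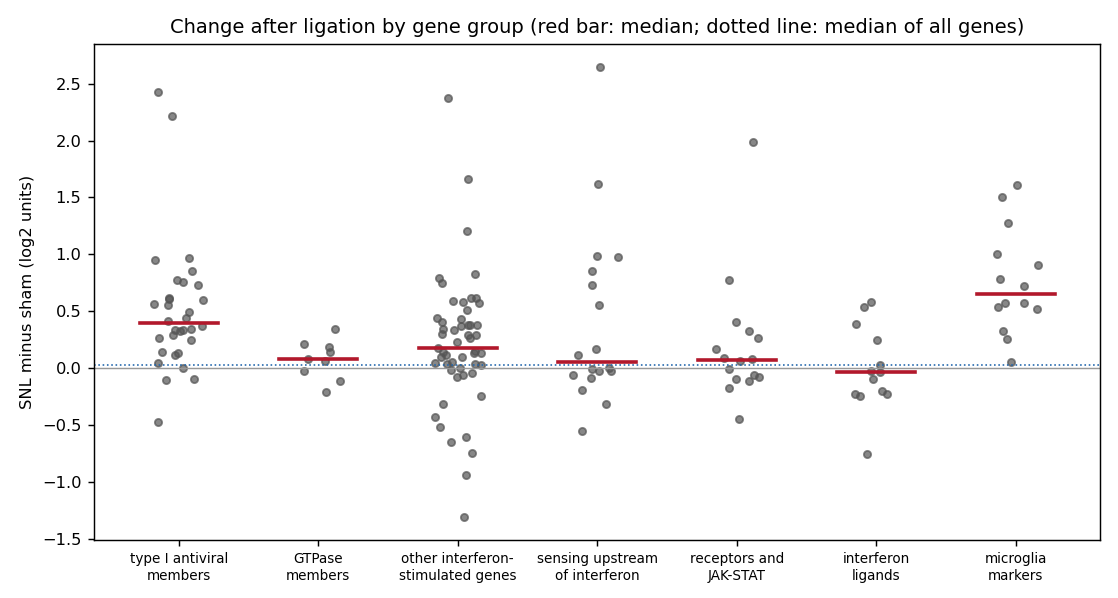
Change after ligation (vertical axis, SNL minus sham, log2 units) of each tested gene (points) in the member groups, the pathway lists and the microglia markers, with a red bar at the median of each and a dotted line at the median of all genes. The type I members have a median of 0.39, the GTPases 0.08, the ligands -0.04 and the microglia markers 0.65.

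**Figure D4:**
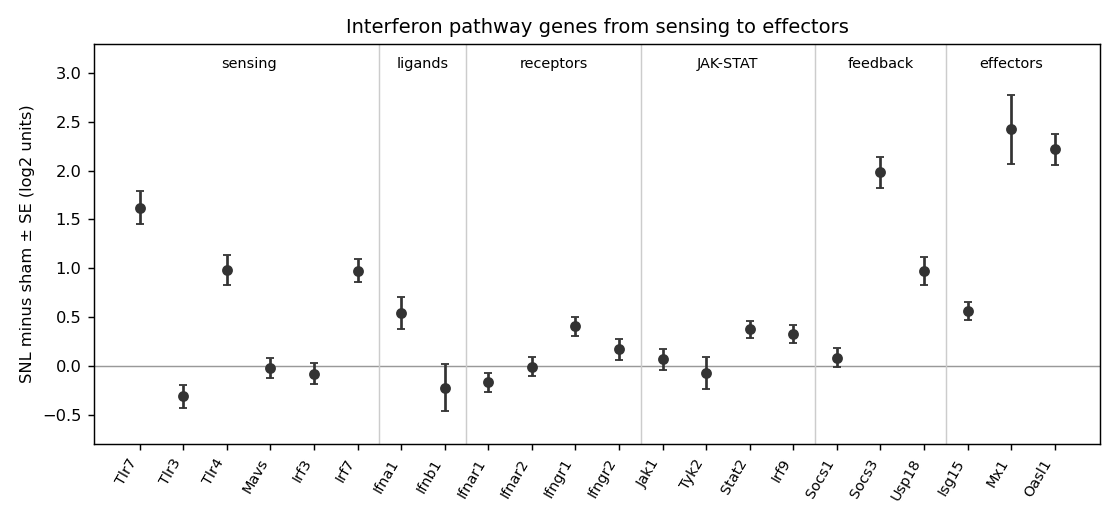
Change after ligation (vertical axis, SNL minus sham, log2 units) of pathway genes in the order of the route, from sensing through ligands, receptors and JAK-STAT to feedback and effectors, where points are estimates and bars 1 SE either side. The genes are a selection, with Isg15, Mx1 and Oasl1 for the effectors and Ifna1 and Ifnb1 for the ligands. Mx1 and Oasl1 had the largest changes of any member, and Ifna7 (-0.75) and Oas2 (-0.47) are among the genes not shown. Tlr7, Socs3, Oasl1 and Mx1 lie well above 0, and the ligand and receptor genes shown lie between -0.22 and 0.54.

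Markers of some immune cells were brighter in SNL mice as well. For the counts below, 6.68% of all genes tested were higher and 5.47% lower at unadjusted p under 0.05. Of 14 microglia markers, 10 were higher and 0 lower at unadjusted p under 0.05, with a median of 0.65, and their summed level on the linear scale was 71.3 to 81.9 in SNL mice and 49.4 to 51.2 in sham mice, in units of the 75th percentile of the array. C1qa, C1qb, C1qc and Trem2, complement and receptor genes of microglia, were at 1.28 ± 0.12, 1.51 ± 0.12, 1.61 ± 0.11 and 0.72 ± 0.090. Of 8 tested markers of monocytes and macrophages, 4 were higher and 0 lower, with a summed level of 4.02 to 4.10 in SNL mice and 1.85 to 2.39 in sham mice. Of 10 tested markers of T and NK cells, 3 were higher and 0 lower, with a summed level of 0.565 to 0.600 in SNL mice and 0.462 to 0.506 in sham mice. Ccr2, a defining marker of recruited monocytes, was at -3.30 and -3.82 in SNL mice and -3.15 and -3.60 in sham mice, so these groups overlapped. Of 5 tested markers of plasmacytoid dendritic cells, a major source of type I interferon in blood, 0 were higher and 2, Ccr9 and Ly6d, lower. This list also holds the member Bst2. The summed level over the other 4 was 13.0 to 13.1 in SNL mice and 12.0 to 12.9 in sham mice. Most of this sum came from Tcf4 and from Siglech, which is also on the microglia list. Their SNL means were 2.71 and 2.65, against -6.10 for Ccr9 and -2.16 for Ly6d. Of 8 neutrophil markers, 0 were higher and 0 lower, with a median of -0.74 and a summed level of 6.91 to 11.6 in SNL mice and 11.2 to 16.2 in sham mice. Of 4 tested B cell markers, 0 were higher and 0 lower, with a median of -0.33 and a summed level of 0.176 to 0.261 in SNL mice and 0.168 to 0.333 in sham mice. Of 8 motor neuron markers, 0 were higher and 6 lower at unadjusted p under 0.05, with a median of -1.16 and a summed level of 14.0 to 16.5 in SNL mice and 22.2 to 25.0 in sham mice, and 2 of them, Mnx1 and Chodl, fell past the adjusted threshold. Of 8 astrocyte markers, 0 were higher and 0 lower, with summed levels of 36.9 to 39.9 in SNL mice and 37.0 to 37.5 in sham mice. The part of immune cells and of motor neurons in the values of the members was not tested. In whole tissue, a different number of cells of a type and a different amount of RNA per cell cannot be told apart.

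Over 13 other ways of processing the data, 5 of the 16 members higher at unadjusted p under 0.05 stayed past that threshold wherever they could be tested, namely Isg15, Oasl1, Oasl2, Usp18 and Mx1. The change of Oasl1 ranged from 2.08 to 2.35, that of Oasl2 from 0.64 to 0.76, and that of Isg15 from 0.51 to 0.79. None of the 16 changed sign in any of these. With trend and robust estimation of the variance, Oasl1, Oasl2 and Usp18 passed the adjusted threshold. In that fit 530 of 29238 genes passed it, against 50 in the reported fit.

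**Figure D5:**
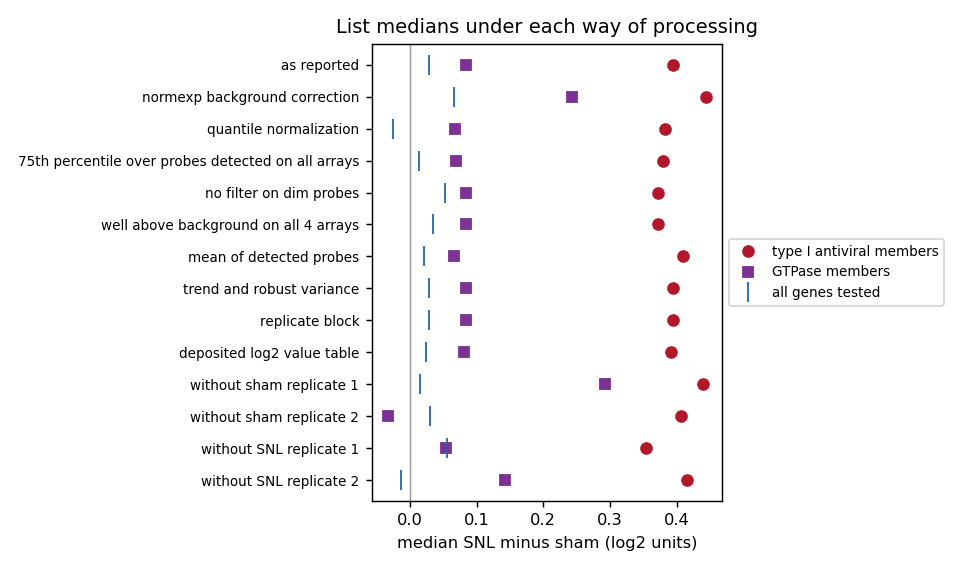
Median change (horizontal axis, SNL minus sham, log2 units) of the type I members (circles), the GTPases (squares) and all genes tested (bars) under each way of processing. The type I median stays between 0.35 and 0.44, while the GTPase median runs from -0.03 to 0.29.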

How the data were processed

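Total RNA of 4 mice (2 SNL, 2 sham) was labelled with Cy3 for Agilent 1-colour arrays, per the labels' protocols. The deposited files give the intensity of each spot on a linear scale, as read by Agilent Feature Extraction (10.7.3.1 in the headers, while the submitters' processing notes name 10.7.1.1). The array design is 028005 and probe positions refer to mm9, per the file headers. A deposited table of the authors' log2 values served as an alternative. Its columns correlated with the scanner values at 1 and were shifted by 0.122 to 0.132, with medians of -3.48 and -3.33 for SNL and -3.45 and -3.52 for sham. A higher value is a brighter spot and genes are not centred, and over which spots its percentile was taken is unknown.

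Values are log2(processed signal) minus the 75th percentile of each array over 59305 non-control spots, without outlier spots, averaged per probe. Probes had to be well above background on at least 2 arrays, and the brightest probe stood for a gene. Of the 55681 probes, 26809 were named through accessions, 3749 through current symbols and 623 through synonyms in RefSeq, 57 are member probes and 24443 kept the name in the file. The comparison of SNL with sham used limma 3.58.1 in R 4.3.3 (lmFit, eBayes, no covariate, 2 residual and 1.65 prior degrees of freedom), and p was adjusted by Benjamini-Hochberg over 29238 genes. The number of arrays limits precision, and the median SE was 0.131. The fit was tested on simulated data. The members and lists were chosen with earlier results of these data known. Values in every mouse are given for members with non-overlapping groups at unadjusted p under 0.05 and for 7 preset members. Pathway lists are named by up to 4 genes of smallest p plus preset genes, of which 1 is not reported here, and other names are said to be chosen later. A slide or scan block was not possible with 1 slide and 1 scan.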

Additional observations from a re-analysis of the deposited data

How the results depend on the processing

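Each result was recomputed in 13 other ways, and of 529 member values 454 kept direction and side of the unadjusted threshold, 39 fell below it (30 with 1 mouse left out), 16 newly passed and 20 changed sign, in 11 members. Members past adjusted p 0.05 numbered 0 as reported, 1 with normexp correction, 1 without a filter (both Oasl1) and 3 with trend and robust variance. Members higher at unadjusted p under 0.05 numbered 16 as reported and 9 to 11 with 1 mouse left out. The type I median was 0.35 to 0.44 throughout. The GTPase median was 0.24 with normexp correction and ran from -0.033 to 0.29 with 1 mouse left out. Over all genes, 50 passed as reported, 131 with normexp, 11 with quantile normalization, 29 with the percentile over probes detected on all arrays, 1227 without a filter, 530 with trend and robust variance and 0 with any 1 mouse left out, where 4.32% to 9.40% were higher at unadjusted p under 0.05 in limma. The cause was not tested, beyond fewer genes or samples.

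Signs turned with normexp for Zbp1 (-0.11), Samd9l (-0.12), Irgm2 (-0.022), Ifnb1 (0.082), Ifnar2 (0.023) and Gm13271 (0.0094). Cmpk2 was at -0.0049 with quantile normalization, -0.010 with the percentile over detected probes and -0.11 as the mean of its probes, where Samd9l was at -0.00092 and Gbp5 at -0.11. With 1 mouse left out, Cmpk2 ran from -0.098 to 0.11, Dhx58 from -0.26 to 0.082, Gbp2 from -0.19 to 0.32, Gbp5 from -0.033 to 0.20, Gbp6 from -0.016 to 0.30, Ifi27l2a from -0.069 to 0.61, Ifi35 from -0.22 to 0.0094, Iigp1 from -0.34 to 0.29, Samd9l from -0.042 to 0.14 and Zbp1 from -0.026 to 0.27. Likewise Ifnar2 ran from -0.060 to 0.045 and Ifnb1 from -0.46 to 0.017.

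Replicate numbers are shared by the groups, and deviations of same-numbered mice correlated at -0.027 over 28939 genes. As each group gives only the difference between its 2 mice, this cannot show whether same-numbered mice were paired. With the replicate block, 12 members were higher at unadjusted p under 0.05 and 0 genes passed the adjusted threshold in limma, with 5.72% of genes higher at unadjusted p under 0.05. Mx1 and Ifnb1 were well above background in 3 of the 4 mice, which limits their values.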
